A study of Xenopus tropicalis with 52 samples.

Results

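The transcripts of the nuclear genes of oxidative phosphorylation were followed through zygotic genome activation and gastrulation in *Xenopus tropicalis*. These genes were taken by symbol: those that begin with nduf (complex I, NADH dehydrogenase), sdha to sdhd (complex II, succinate dehydrogenase), uqcr (complex III, cytochrome bc1), cox4 to cox8 (complex IV, cytochrome c oxidase) and atp5 (complex V, ATP synthase). The rule found 79 of 28413 gene identifiers, among them 36 of complex I, 4 of complex II, 6 of complex III, 12 of complex IV and 13 of complex V. The remaining 8 match the spelling without being subunits of a complex and are given apart: the complex I assembly factors ndufaf1 to ndufaf4, the complex II assembly factor sdhaf2, cox4nb (emc8 in RefSeq's gene table, of the ER membrane complex), atp5s (dmac2l there) and atp5sl. The gene ndufb4 has 2 identifiers, of which the exon counts hold 1, so 78 genes had exon counts. Of these, 77 passed the filter on low counts in both poly(A) experiments. The remaining gene, cox7a1, had at most 4.58 normalised counts in any library of stages 10+ to 12+. Transcripts encoded by the mitochondrial genome were left out.

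Oxidative phosphorylation passes electrons from NADH and succinate through complexes I to IV to oxygen, and the proton gradient built on the way drives ATP synthase. Most subunits are encoded in the nucleus, and a few core subunits of complexes I, III, IV and V are encoded by mitochondrial DNA. Frog eggs hold a large store of maternal mitochondria and of maternal mRNA, and early embryos develop on it before and after transcription from the zygotic genome begins.

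All embryos were whole embryos of a wild-type, outbred Nigerian strain. For new RNA, embryos were injected with 75 ng of 4sU, a uridine analogue by which new RNA can be selected. Pools of 30 injected embryos were collected at stage 8+ (mid-blastula transition) and at stage 10+ (early gastrula). From each pool 1 input and 1 4sU-enriched library of rRNA-depleted RNA were made. For signalling, poly(A) RNA was sequenced at stage 9+ (late blastula) from 8 groups of 3 libraries: DMSO-treated controls and LOF (loss of function) of canonical Wnt (5 ng of a morpholino against β-catenin injected into the zygote), Nodal (100 µM SB431542) and BMP (10 µM LDN193189), singly and in all combinations, with the inhibitors given from the 8-cell stage. The controls had no injection, so injection and loss of β-catenin cannot be told apart in the Wnt groups. For T-box factors, poly(A) RNA was sequenced at stages 10+, 11+ (mid-gastrula) and 12+ (late gastrula) from 4 libraries each of control morphants (cMO) and of zTLOF embryos. The labels give 5 or 20 ng of control morpholino to match the LOF dose, read here as 20 ng in the cMO libraries. The zTLOF embryos had received morpholinos against zVegT (5 ng) and Eomes (5 ng) and the morpholinos Xbra.1, Xbra.2, Xbra3.1 and Xbra3.2 (2.5 ng each). The study's methods give a splice-blocking and a translation-blocking morpholino for each of the genes Xbra and Xbra3. In the study's methods those against Eomes and some of those against the Xbra genes block splicing and the others block translation, so exon counts of the targets do not measure how much functional product was lost. Over stages 10+ to 12+ the exon counts of eomes (log2 fold change 1.19, adjusted p = 9.99e-08) and vegt (0.88, adjusted p = 0.001) were higher in zTLOF than in cMO embryos by the edgeR test described below, and those of t (Xbra) gave -0.10 (adjusted p = 0.61). Each poly(A) library pooled 10 to 15 embryos, and the labels do not say that replicates came from separate clutches, so p-values measure the spread between these libraries.

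Each library held 26586752 to 60984753 reads on exons at stages 10+ to 12+, and 27710453 to 45443446 at stage 9+. Intron counts were at least 1565436 and 1111752. The gene lines of the 4sU table held 7884062 and 6470826 input pairs but only 888940 and 1538052 4sU-enriched pairs at stages 8+ and 10+. Replicates of each group differed by more than counting noise. As a check of the label, 17 of 20 germ layer markers were found, and each had reads in 45 to 48 of 48 poly(A) libraries. Their summed level moved with stage and with some of the LOFs. In cMO libraries it ran from 4639 to 5419.6 CPM (counts scaled to library size after TMM normalization) at stage 10+ and from 13079 to 15709.5 at stage 12+. At stage 9+ it ran from 3872 to 6154 in DMSO libraries against 1499 to 2072 after triple LOF. The ranges after Wnt LOF (2647 to 4360) and BMP LOF (3019 to 4588) overlapped that of DMSO, and those after the other LOFs lay below it. The zTLOF range overlapped that of cMO at each stage, with 15279 to 17844 at stage 12+. In zTLOF embryos 4 of the 17 markers were higher and 7 lower than in cMO embryos over the stages, against 21.6% and 20.3% of all genes. The largest change was in myod1 of skeletal muscle, at a log2 fold change of -3.28 (adjusted p = 6.96e-06). The markers that were higher were eomes, vegt, gata5 and sox3, and the mesoderm markers t and gsc did not pass the test. The part of changing germ layers in the results below was not tested, and in whole embryos fewer cells of a type and less RNA per cell cannot be told apart.

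From early to mid-gastrula, transcripts of most subunits rose together in control morphants. Of 77 genes tested, 52 rose and 3 fell from stage 10+ to stage 11+ at an adjusted p of at most 0.1 (edgeR quasi-likelihood test, adjusted by Benjamini-Hochberg over 17188 genes). Over all genes tested 28.5% rose and 29.2% fell. The median log2 fold change was 0.44 over these genes and 0.00 over all genes, and within the 4 pairs of libraries with the same replicate number the median ran from 0.41 to 0.49. The rise was seen in complexes I, III, IV and V: 24 of 35 tested genes of complex I (median 0.39), 5 of 6 of complex III (0.65), 9 of 11 of complex IV (0.66) and 13 of 13 of complex V (0.58) rose. No gene of complex II passed the test, and among the 8 that are not subunits 1 rose and 2 fell. In 37 genes every stage 11+ library lay above every stage 10+ library, and in 2 below, against 22.3% and 23.3% of all genes. The summed level of the subunits went from 3463 ± 257 CPM at stage 10+ to 4638 ± 369 at stage 11+ and 4819 ± 266 at stage 12+ (SD, n = 4).

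From mid- to late gastrula the changes went in both directions. Of the same 77 genes 30 rose and 21 fell, against 36.3% and 36% of all genes. Complex IV gave 9 rises and 2 falls among 11 genes, complex III 3 rises and no fall among 6, and complex V 6 rises and 1 fall among 13. Complex I gave 9 rises and 11 falls among 35, complex II 1 rise and 2 falls among 4, and the 8 that are not subunits 2 rises and 5 falls. With the replicate number as a block 58 rose and 8 fell in the earlier step and 40 rose and 28 fell in the later, against 34.8% and 35.9%, then 40.2% and 41.1% of all genes. The groups by complex are small, and no difference between complexes was tested. Scaling by library totals in place of TMM moved the median of all genes by -0.21 and -0.13 on the log2 scale in the earlier and later step, and gave 37 rises and 12 falls, then 21 rises and 23 falls. Of all 17188 genes it called 10105 and then 12492 in either direction. The shares of rises and falls over all genes given above are from TMM and do not apply to these counts. The libraries hold poly(A) RNA, so more RNA and more polyadenylated RNA cannot be told apart.

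**Figure D1:**
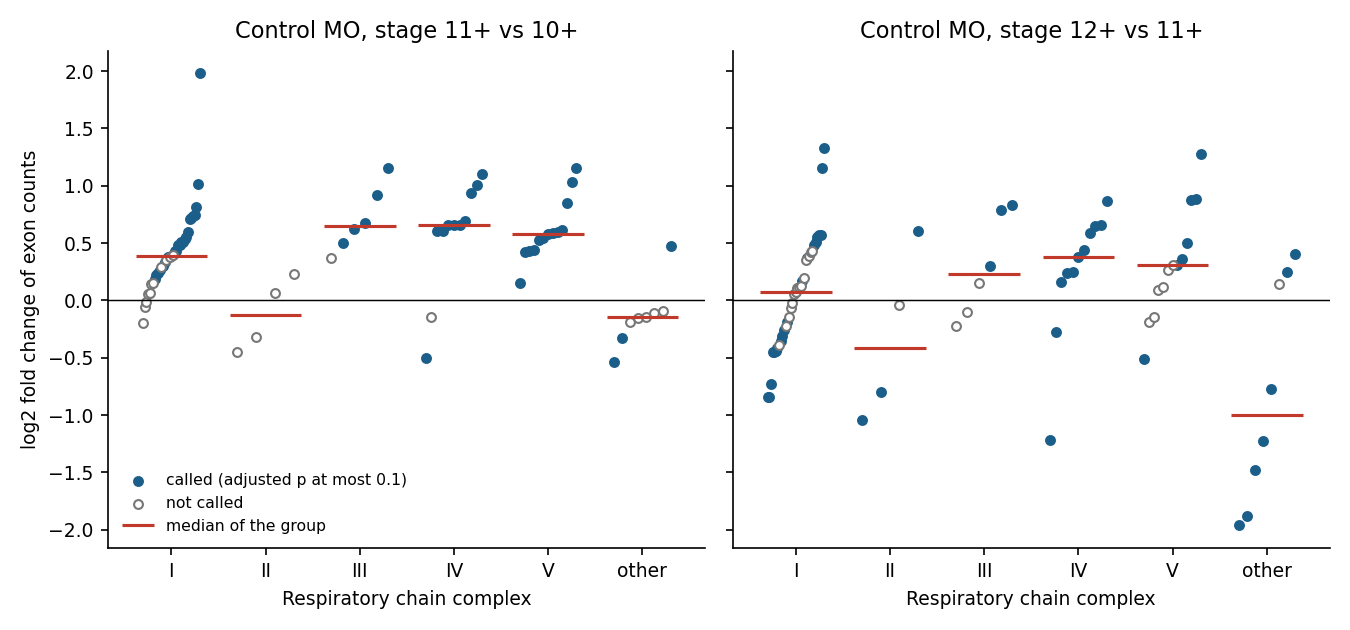
Each point is 1 gene, placed by its log2 fold change in control morphants from stage 10+ to 11+ and from stage 11+ to 12+, by complex, with filled points for genes called at an adjusted p of at most 0.1 and a line at each group's median. All 13 genes of complex V lie above 0 and were called in the earlier step, while the genes of complex I spread on both sides of 0 in the later step.

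In complex I the largest change was in ndufc2, an accessory subunit of the membrane arm. Values per library are TMM-normalised counts, in the order of the replicate numbers, and errors of fold changes are standard errors. In control morphants ndufc2 stood at 85, 89.1, 167 and 113 at stage 10+, at 429, 391.9, 574 and 402 at stage 11+ and at 1124, 1071, 1256 and 1054 at stage 12+. The stages did not overlap, and ndufc2 rose in both steps (1.98 ± 0.24, adjusted p = 5.23e-07; 1.33 ± 0.23, adjusted p = 3.38e-05). The accessory subunit ndufa5 rose likewise (0.74 ± 0.14, adjusted p = 0.000184; 1.15 ± 0.15, adjusted p = 3.85e-07). The largest core subunit, the iron-sulphur protein ndufs1, stood at 4763, 4968, 5310.3 and 5013 at stage 10+, at 5400.5, 5623, 5979.7 and 5758 at stage 11+ and at 4864, 4212, 5014 and 4256 at stage 12+, within 4212 to 5979.7 throughout. It rose slightly and then fell (0.18 ± 0.07, adjusted p = 0.0253; -0.31 ± 0.07, adjusted p = 0.000304), and under scaling by library totals the earlier value was -0.02. The 7 nuclear core subunits, which form the arm where NADH is oxidised, gave 5 rises and no fall in the earlier step. In the later one they gave no rise and 5 falls. Over all genes 28.5% rose and 29.2% fell in the earlier step, and 36.3% and 36% in the later. Beside ndufs1, examples of the falls were ndufs3 (-0.73, adjusted p = 2.94e-08) and ndufv1 (-0.45, adjusted p = 0.000272). Among accessory subunits ndufb4 (1.02, adjusted p = 9.71e-05) and ndufb6 (0.82, adjusted p = 0.0175) also rose in the earlier step, and ndufa7 fell in the later (-0.84, adjusted p = 1.56e-07). Without replicate 4 the call of ndufs1 from stage 10+ to 11+ (adjusted p = 0.113) was lost.

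None of the 4 genes of complex II, which is also an enzyme of the tricarboxylic acid cycle, passed the test in the earlier step, and with the replicate number as a block 1 rose and 2 fell. The flavoprotein subunit sdha stood at 6222, 7207, 6567 and 5924 at stage 10+, at 6714, 7333, 6911 and 6187 at stage 11+ and at 4085, 4089.7, 4064 and 3363 at stage 12+. Stages 10+ and 11+ overlapped, stage 12+ lay below stage 11+, and sdha passed the test in the later step alone, where it fell (0.07 ± 0.08, adjusted p = 0.538; -0.80 ± 0.08, adjusted p = 2.75e-08). The membrane anchor sdhc gave -0.45 ± 0.30, adjusted p = 0.22 and 0.000276 with the block, and then fell (-1.04 ± 0.31, adjusted p = 0.00482). The other anchor, sdhd, moved the other way in the later step (-0.32 ± 0.17, adjusted p = 0.122 and 0.022 with the block; 0.61 ± 0.17, adjusted p = 0.00312), from 469.8, 595, 519 and 516 to 767, 759, 855 and 815 normalised counts. The iron-sulphur subunit sdhb gave 0.23 ± 0.30, adjusted p = 0.557 and 0.0484 with the block, and then -0.04, adjusted p = 0.923.

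In complex III the core protein uqcrc1 rose in both steps. It stood at 932, 901, 1284 and 1118 at stage 10+, at 1799, 1716, 2486 and 2028 at stage 11+ and at 2812, 3534, 4074 and 3459 at stage 12+, without overlap of neighbouring stages (0.92 ± 0.14, adjusted p = 1.16e-05; 0.79 ± 0.14, adjusted p = 4.45e-05). The small subunit uqcr10 stood at 218, 205, 341 and 291 at stage 10+, at 521, 437, 711 and 676 at stage 11+ and at 1117, 1060.1, 1062 and 949.6 at stage 12+, and rose too (1.15 ± 0.17, adjusted p = 4.69e-06; 0.84 ± 0.16, adjusted p = 0.000118). The Rieske iron-sulphur protein uqcrfs1 rose in the earlier step (0.50, adjusted p = 9.74e-08) and gave -0.10, adjusted p = 0.106 and 0.0362 with the block in the later. The second core protein uqcrc2 gave 0.37, adjusted p = 0.355 and 6.36e-05 with the block, and -0.22, adjusted p = 0.556 and 0.00602 with the block.

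In complex IV, the nuclear subunits of cytochrome c oxidase rose in both steps with few exceptions. The subunit cox7b stood at 638, 662, 963 and 766 at stage 10+, at 1412, 1353, 2025 and 1723 at stage 11+ and at 2669, 2890.2, 3303 and 3042 at stage 12+, without overlap of neighbouring stages (1.10 ± 0.13, adjusted p = 4.69e-07; 0.87 ± 0.13, adjusted p = 5.32e-06). The subunit cox4i1 rose from 2292 ± 407 to 3706 ± 679.7 and then 5573 ± 553 normalised counts (SD, n = 4; 0.69 ± 0.14, adjusted p = 0.000229; 0.59 ± 0.14, adjusted p = 0.000763). Of subunits that have paralogs in other tissues, cox6a1 (0.65, adjusted p = 8.41e-05; 0.44, adjusted p = 0.00278), cox6b1 (0.61, adjusted p = 1.9e-08; 0.16, adjusted p = 0.0164) and cox7a2 (0.61, adjusted p = 2.4e-05; 0.24, adjusted p = 0.0364) rose in both steps. The relative cox7a2l, a factor of supercomplex assembly, did not follow cox7a2 (-0.14, adjusted p = 0.193 and 0.0858 with the block; -0.27, adjusted p = 0.0107). Of the 2 copies of cox5b, cox5b.1 rose (0.94, adjusted p = 9.1e-06; 0.66, adjusted p = 0.000299) and cox5b.2 fell (-0.51 ± 0.20, adjusted p = 0.0402; -1.22 ± 0.21, adjusted p = 2.34e-05), from 580.1, 851, 625 and 543 at stage 10+ to 202, 225, 235 and 125 normalised counts at stage 12+. Under scaling by library totals the later values of cox6b1 and cox7a2 were 0.04 and 0.12 (adjusted p = 0.565 and 0.307). Reads of the 2 copies could be split between them in the counting, so their separate values are uncertain. Without replicate 2 the calls of cox6b1 from stage 11+ to 12+ (adjusted p = 0.102) and cox7a2 from stage 11+ to 12+ (0.123) were lost. Without replicate 1 the call of cox5b.2 from stage 10+ to 11+ (adjusted p = 0.109) was lost. Without replicate 3 the call of cox5b.2 from stage 10+ to 11+ (adjusted p = 0.116) was lost.

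In complex V every gene rose in the earlier step, and the catalytic subunits differed in the later one. The beta subunit atp5b stood at 26019, 28863, 29665 and 29868 at stage 10+, at 29837, 31862, 32876 and 32937 at stage 11+ and at 21876, 22626, 23548 and 21315 at stage 12+. It rose slightly and then fell (0.16 ± 0.06, adjusted p = 0.0465; -0.51 ± 0.06, adjusted p = 3.89e-07), and under scaling by library totals the earlier value was -0.05. The alpha subunit atp5a1, its partner in the catalytic hexamer, rose in both steps (0.85 ± 0.27, adjusted p = 0.0112; 0.87 ± 0.27, adjusted p = 0.00679). The peripheral stalk subunit atp5f1 stood at 544, 658, 1214 and 823 at stage 10+, at 1235, 1367, 2355 and 1691 at stage 11+ and at 2785, 2607, 3748 and 3159.7 at stage 12+, each stage above the one before in every library (1.04 ± 0.26, adjusted p = 0.00171; 0.89 ± 0.26, adjusted p = 0.00406). The membrane subunit atp5j2 went from 191, 180.2, 328 and 220.4 at stage 10+ to 1047, 1201, 1435 and 1291 at stage 12+ (1.15 ± 0.20, adjusted p = 4.96e-05; 1.28 ± 0.20, adjusted p = 7.71e-06). Both genes of the ring-forming c subunit rose in the earlier step, atp5g1 (0.53, adjusted p = 0.00309) and atp5g3 (0.54, adjusted p = 0.000132), and in the later step gave -0.19, adjusted p = 0.249 and 0.013 with the block and 0.31, adjusted p = 0.0117. Under scaling by library totals the later value of atp5g3 was 0.18 (adjusted p = 0.11). Replicate 3 was the highest library of atp5a1 and atp5f1 at each stage in control morphants. Without replicate 1 the call of atp5b from stage 10+ to 11+ (adjusted p = 0.119) was lost. Without replicate 2 the call of atp5b from stage 10+ to 11+ (adjusted p = 0.108) was lost. Without replicate 4 the call of atp5b from stage 10+ to 11+ (adjusted p = 0.124) was lost.

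Of the 8 genes that are not subunits 5 fell in the later step, where 36% of all genes fell. The complex I assembly factor ndufaf2 went from 127, 115, 287 and 169 normalised counts at stage 11+ to 45.5, 31.6, 62 and 39.3 at stage 12+ (-1.96 ± 0.35, adjusted p = 4.29e-05). The assembly factor ndufaf1 fell as well (-1.22 ± 0.18, adjusted p = 2.5e-06), as did ndufaf4 (-0.77 ± 0.14, adjusted p = 4.49e-05), atp5sl (-1.88 ± 0.13, adjusted p = 6.27e-11) and atp5s (-1.48 ± 0.42, adjusted p = 0.00357), while ndufaf3 rose (0.41 ± 0.10, adjusted p = 0.000726). In the earlier step atp5sl (-0.54 ± 0.12, adjusted p = 0.000842) and cox4nb (-0.32 ± 0.09, adjusted p = 0.0051) fell and sdhaf2 rose (0.48 ± 0.12, adjusted p = 0.00266). Without the 8 genes that are not subunits the counts were 51 rises and 1 fall of 69 in the earlier step and 28 rises and 16 falls in the later. The shares of all genes were 28.5% and 29.2%, then 36.3% and 36%.

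Intron reads, which can come from unspliced RNA, were tested for the 69 genes that passed the filter on low intron counts. From stage 10+ to 11+ introns of 28 rose and of 3 fell, against 21.6% and 20.3% of all genes, with a median log2 fold change of 0.29. From stage 11+ to 12+ introns of 17 rose and of 19 fell, against 30.4% and 29.1%. In that step introns fell in 7 of 10 genes of complex IV and 4 of 6 of complex III, with no rise in either, whereas exon counts of those complexes rose or did not pass the test apart from cox5b.2 and cox7a2l. For cox7b the intron value was -0.52 ± 0.16, adjusted p = 0.00981, beside the exon rise of 0.87, and for uqcr10 it was -0.73 ± 0.23, adjusted p = 0.00988, beside 0.84. Introns of complex I gave 12 rises and 4 falls of 32, with ndufs1 at 0.76 ± 0.16, adjusted p = 0.000392, beside an exon value of -0.31.

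Other genes of the pathway were taken from lists outside the symbol rule and are given as rises and falls in the earlier and then the later step, where 28.5% and 29.2%, then 36.3% and 36% of all genes rose and fell. Cytochrome c genes gave 2 and 0, then 1 and 0 of 3. Complex IV assembly and copper delivery gave 3 and 4, then 2 and 7 of 12, and complex III assembly gave 1 and 2, then 0 and 4 of 4. Complex V assembly gave 1 and 0, then 2 and 0 of 4, and complex I assembly outside the symbol rule 1 and 2, then 1 and 3 of 5. Enzymes of the tricarboxylic acid cycle gave 5 and 5, then 1 and 7 of 14, and glycolysis gave 7 and 2, then 4 and 5 of 16. Regulators of mitochondrial biogenesis gave 5 and 6, then 9 and 2 of 15, and mitochondrial carriers and voltage channels 4 and 0, then 2 and 2 of 6.

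Over stages 10+ to 12+ more of these genes were lower than higher in zTLOF embryos. Over the stages together, with stage as a term, 8 of 77 were higher and 29 lower in zTLOF than in cMO embryos, against 21.6% and 20.3% of all genes, with a median log2 fold change of -0.09 beside 0.01 over all genes. Complex I gave 2 higher and 13 lower, complex III 0 and 3, complex IV 0 and 5 and complex V 1 and 6, while complex II gave 2 higher and none lower. With the replicate number as a block 12 were higher and 35 lower, against 27.8% and 26.9% of all genes with the block. At stage 10+ 6 were higher and 4 lower, against 9.37% and 8% of all genes, and the block gave 11 and 21, against 16.4% and 16.8%. At stage 11+ 6 were higher and 25 lower, against 16.8% and 16.8%, and the block gave 7 and 47, against 24.3% and 25.8%. At stage 12+ 12 were higher and 16 lower, against 21.4% and 16.4%, and the block gave 22 and 24, against 30.4% and 25.1%. Without replicate 4 the counts at stage 11+ were 4 and 11, where 3454 of 17201 genes were called in either direction. Without replicate 2 those at stage 12+ were 9 and 9, where 4865 of 17254 genes were called. The fits with all replicates called 5785 and 6489 of 17188 genes at these stages. The summed subunit level was 3387 ± 169, 4263 ± 353 and 5118 ± 285 CPM at the 3 stages in zTLOF embryos (SD, n = 4), against 3463, 4638 and 4819 in cMO embryos. The sum gives most weight to abundant transcripts such as atp5b, which was higher in zTLOF embryos. At stage 12+, where the sum was higher, 44 of 69 subunits had a log2 fold change below 0, against 8090 of all 17188 genes. The comparisons of zTLOF with cMO embryos and those of stages use the same cMO libraries.

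**Figure D2:**
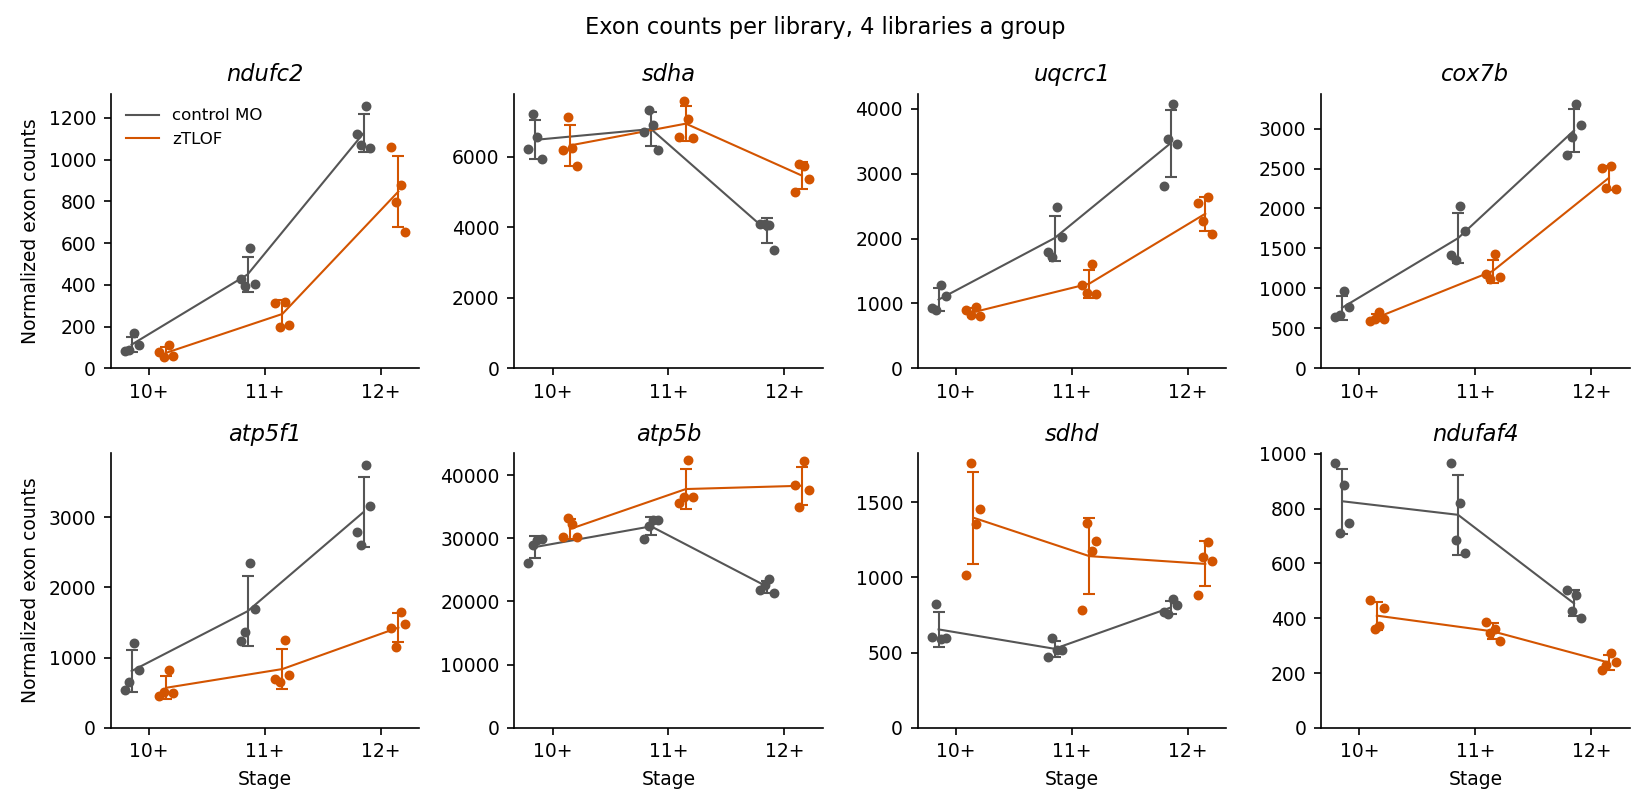
TMM-normalised counts of 8 genes in each library (points) of cMO and zTLOF embryos at stages 10+, 11+ and 12+, with the mean and SD of each group and lines that join the means. The zTLOF libraries of ndufaf4 lie below and those of sdhd above the cMO libraries at every stage, and ndufc2 rises with stage in both.

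The largest log2 fold change downward over the stages was in ndufaf4, a complex I assembly factor. In cMO embryos ndufaf4 stood at 965, 709.5, 886 and 747 at stage 10+, at 965, 685, 821 and 638 at stage 11+ and at 503, 428, 484 and 401 at stage 12+. In zTLOF embryos it stood at 466, 362, 371 and 438 at stage 10+, at 387, 344, 359.6 and 316 at stage 11+ and at 211, 229, 274 and 238 at stage 12+, below every cMO library of the same stage (-1.03 ± 0.08, adjusted p = 2.41e-09 over the stages, lower in 12 of 12 pairs). At the single stages its log2 fold change was -1.01 ± 0.14, adjusted p = 2.89e-05, then -1.14 ± 0.14, adjusted p = 3.57e-06, and -0.93 ± 0.14, adjusted p = 3.04e-05. The next gene in RefSeq's order, pgm3, gave -0.13 (adjusted p = 0.194). Another assembly factor went the other way: ndufaf3 stood at 652, 621, 746 and 664 at stage 10+, at 591, 561, 612 and 650.5 at stage 11+ and at 744, 753, 862 and 844 at stage 12+ in cMO and at 895, 901, 1027 and 837 at stage 10+, at 947, 909, 1119 and 981 at stage 11+ and at 1102, 1131, 1307 and 1269 at stage 12+ in zTLOF embryos, without overlap (0.58 ± 0.06, adjusted p = 1.14e-07, higher in 12 of 12 pairs). The factor ndufaf1 was also higher (0.34 ± 0.10, adjusted p = 0.00858, higher in 12 of 12 pairs), and ndufaf2 gave 0.01, adjusted p = 0.974. The 4 factors of complex I assembly did not move together. The same replicate numbers recur at each stage, so the 12 pairs of a gene are not independent of each other.

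In complex I the accessory subunits ndufc2, ndufc1 and ndufb2 were lower than in controls over the stages. In zTLOF embryos ndufc2 stood at 77.2, 54.7, 109 and 56.8 at stage 10+, at 312, 199.9, 319.7 and 209 at stage 11+ and at 1060.4, 797, 876 and 652 at stage 12+, against 113, 449 and 1126 on average in cMO embryos (-0.60 ± 0.13, adjusted p = 0.0012, lower in 12 of 12 pairs). Both ndufc1 (-0.57 ± 0.08, adjusted p = 7.51e-06) and ndufb2 (-0.76 ± 0.17, adjusted p = 0.000884) were lower too. The core subunits ndufs3 (0.30, adjusted p = 0.000361) and ndufs7 (0.26, adjusted p = 0.00109) were higher and ndufs8 (-0.20, adjusted p = 0.0115) and ndufv1 (-0.27, adjusted p = 0.00369) lower, and ndufs1 gave -0.01, adjusted p = 0.933. The accessory subunit ndufb5 changed direction with stage: it stood at 1446, 1626, 1456 and 1376 against 1158, 1242, 1202 and 1071 in cMO embryos at stage 10+, where every zTLOF library was higher (0.34 ± 0.08, adjusted p = 0.00435). At stage 12+ it stood at 1312, 1314, 1177 and 1145 against 1917, 1895, 1878 and 1778, where every zTLOF library was lower (-0.59 ± 0.08, adjusted p = 4.57e-06). At stage 11+ the groups overlapped (-0.12 ± 0.08, adjusted p = 0.265 and 0.0848 with the block), and the test of a difference between stages gave an adjusted p of 1.5e-05. In RefSeq's order ndufb5 lies between usp13 and mrpl47, which gave 0.51 (adjusted p = 0.000186) and 0.21 (adjusted p = 0.0645) over the stages.

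In complex II, sdhd was higher in zTLOF embryos at every stage. It stood at 606, 825, 590.1 and 594 at stage 10+, at 469.8, 595, 519 and 516 at stage 11+ and at 767, 759, 855 and 815 at stage 12+ in cMO embryos and at 1017, 1760.5, 1356 and 1450.4 at stage 10+, at 784, 1363, 1172 and 1242 at stage 11+ and at 879.9, 1135, 1232 and 1109 at stage 12+ in zTLOF embryos, without overlap within a stage (0.89 ± 0.11, adjusted p = 2.32e-06, higher in 12 of 12 pairs). Its neighbour in RefSeq's order, timm8b, gave -0.03 (adjusted p = 0.748). The flavoprotein sdha was slightly higher over the stages (0.16 ± 0.07, adjusted p = 0.0703) and gave 0.49 at stage 12+ (adjusted p = 0.000122), while sdhb and sdhc gave 0.03, adjusted p = 0.933 and -0.33, adjusted p = 0.133 and 0.00013 with the block. In complex III uqcrc1 stood at 892, 815, 948 and 803 at stage 10+, at 1290.2, 1164, 1614 and 1152 at stage 11+ and at 2552, 2266, 2638 and 2076 at stage 12+ in zTLOF embryos and was below every cMO library at stages 11+ and 12+ (-0.49 ± 0.09, adjusted p = 0.000105, lower in 12 of 12 pairs). In complex IV cox7b (-0.33, adjusted p = 0.00147), cox5b.1 (-0.31, adjusted p = 0.00612), cox6a1 (-0.27, adjusted p = 0.00524), cox7a2l (-0.18, adjusted p = 0.0131) and cox6b1 (-0.13, adjusted p = 0.0192) were lower, and cox4i1 gave -0.08, adjusted p = 0.478 and cox7a2 -0.09, adjusted p = 0.249. Without replicate 1 the call of sdha over the stages (adjusted p = 0.115) was lost. Without replicate 2 the call of sdha over the stages (adjusted p = 0.141) was lost. Without replicate 3 the calls of sdha over the stages (adjusted p = 0.143) and cox7a2l over the stages (0.111) were lost. Without replicate 4 the calls of sdha over the stages (adjusted p = 0.167) and cox6b1 over the stages (0.215) were lost.

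In complex V the subunits of 1 enzyme moved in opposite directions. The catalytic beta subunit atp5b stood at 30186, 33184, 32266 and 30159 at stage 10+, at 35614, 36495, 42413 and 36589.6 at stage 11+ and at 38385, 34934, 42292 and 37591 at stage 12+ in zTLOF embryos, above every cMO library of the same stage (0.39 ± 0.07, adjusted p = 0.000129, higher in 12 of 12 pairs). The difference was 0.14 ± 0.06, adjusted p = 0.192 and 0.0464 with the block at stage 10+, 0.24 ± 0.06, adjusted p = 0.00654 at stage 11+ and 0.78 ± 0.06, adjusted p = 1.18e-08 at stage 12+, and differed between stages (adjusted p = 6.2e-05). The alpha subunit atp5a1 was lower (-0.39 ± 0.15, adjusted p = 0.0466), as were atp5j2 (-0.50 ± 0.12, adjusted p = 0.00143) and atp5j (-0.45 ± 0.14, adjusted p = 0.0144). The stalk subunit atp5f1 stood at 455, 511, 818 and 501 at stage 10+, at 699, 651, 1255 and 746 at stage 11+ and at 1418, 1158, 1655 and 1484 at stage 12+ in zTLOF embryos (-0.87 ± 0.15, adjusted p = 0.000103, lower in 12 of 12 pairs), with replicate 3 the highest. Its neighbour in RefSeq's order, wdr77, was higher in zTLOF embryos (1.29, adjusted p = 7.16e-06). The c subunit genes gave -0.04, adjusted p = 0.8 for atp5g1 and -0.09, adjusted p = 0.268 for atp5g3. Outside the complexes atp5sl was higher at every stage without overlap (0.92 ± 0.13, adjusted p = 7.68e-06), and its difference was 0.40, adjusted p = 0.0332 at stage 10+, then 0.79 and 1.64. The effect of zTLOF differed between stages in 15 of 77 genes, against 27.1% of all genes, and in 37 with the block, against 48.6%. Without replicate 2 the call of atp5sl at stage 10+ (adjusted p = 0.152) was lost. Without replicate 3 the call of atp5sl at stage 10+ (adjusted p = 0.168) was lost. Without replicate 4 the call of atp5sl at stage 10+ (adjusted p = 0.144) was lost.

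Intron counts gave fewer higher and more lower genes than exon counts. Over the stages introns of 3 of 69 genes were higher and of 34 lower in zTLOF embryos, against 18.4% and 20.5% of all genes, with a median log2 fold change of -0.26. Lower introns were found in 10 of 13 genes of complex V, 17 of 32 of complex I, 4 of 10 of complex IV and 2 of 6 of complex III. Exons and introns went apart for atp5b, whose introns were lower (-0.59 ± 0.13, adjusted p = 0.001) where its exons were higher. They also went apart for cox7a2l, at 0.37 ± 0.11, adjusted p = 0.00954 in introns and -0.18 in exons. They went together for cox7b (-0.90 ± 0.10, adjusted p = 1.19e-07), atp5f1 (-0.51 ± 0.09, adjusted p = 4.12e-05), ndufc2 (-0.67 ± 0.14, adjusted p = 0.000474) and sdha (0.58 ± 0.12, adjusted p = 0.000503). No intron reads were counted for ndufaf4, so its value rests on exons. Of the other pathway lists, as higher and lower over the stages beside 21.6% and 20.3% of all genes, complex IV assembly gave 4 and 1 of 12, complex III assembly 2 and 0 of 4, complex V assembly 1 and 2 of 4, complex I assembly outside the rule 2 and 1 of 5, cytochrome c 0 and 1 of 3, the tricarboxylic acid cycle 5 and 6 of 14, biogenesis regulators 4 and 5 of 15, carriers and channels 0 and 3 of 6 and glycolysis 3 and 3 of 16.

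**Figure D3:**
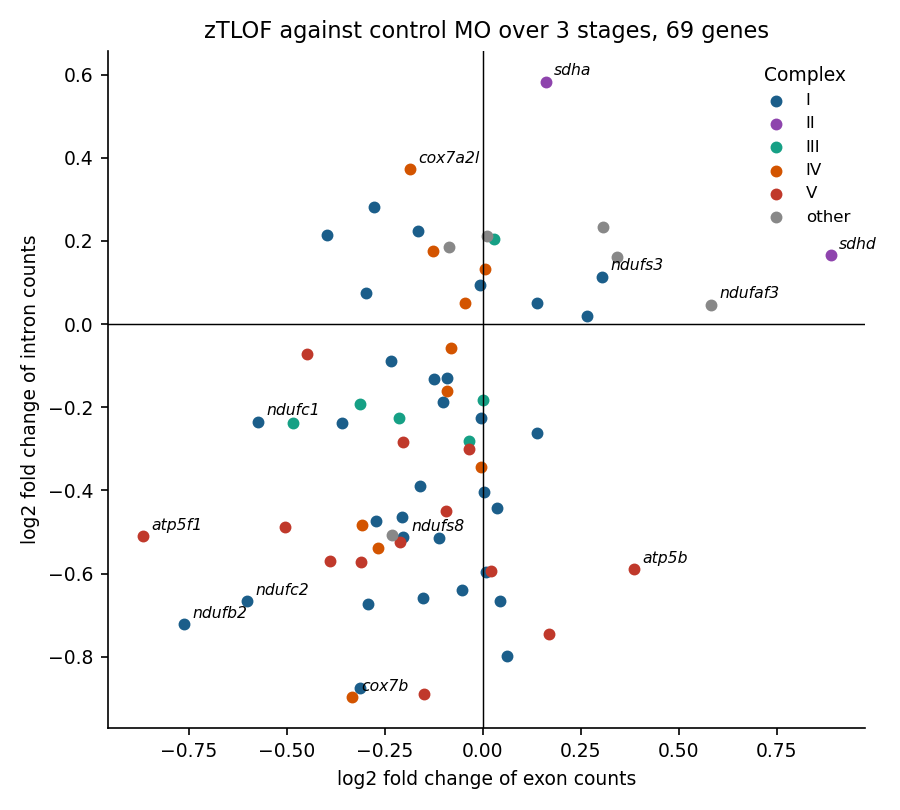
Each point is 1 of 69 genes with both readouts, placed by its log2 fold change in zTLOF against cMO embryos over stages 10+ to 12+ in exon counts (x) and intron counts (y). Most points lie below 0 in introns, and atp5b lies right of 0 in exons and below 0 in introns.

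At stage 9+, before gastrulation, few of these genes and few of all genes were called after loss of Wnt, Nodal or BMP signalling. Wnt LOF gave 0 higher and 1 lower of 77, against 0.262% and 0.887% of all genes. Wnt/BMP, Wnt/Nodal and Wnt/Nodal/BMP LOF each gave 2 higher and 1 lower, against 0.312% and 1.43%, 0.287% and 2.1%, and 0.369% and 2.62% of all genes. Nodal LOF (0.0125% and 0.669% of all genes), BMP LOF (0% and 0%) and Nodal/BMP LOF (0.0687% and 0.506%) gave none by edgeR or by DESeq2. An unadjusted p under 0.05 by edgeR was found for 0, 1 and 4 of the 77 genes, beside 548, 217 and 628 of all 16001 genes. A test of any difference between the 8 groups called 3 genes, against 3.09% of all genes. The median standard error of a log2 fold change was 0.16 in this fit without the block, so small differences could be missed by it. With the replicate block the LOFs gave 4 calls for Wnt, 9 for Wnt/BMP, 6 for Wnt/Nodal, 6 for Wnt/Nodal/BMP, 1 for Nodal/BMP and 5 for any difference, and it called more of all genes too (3.97%, 7.59%, 6.06%, 8.14%, 2.82% and 8.16%). The 7 LOF groups share their DMSO libraries, so their calls are not independent of each other. The summed subunit level had group means between 3702 and 3915 CPM.

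The complex I assembly factor ndufaf4 was lower in the 4 groups with Wnt LOF. It stood at 1009, 748 and 905 normalised counts in DMSO controls, at 536, 497 and 528 after Wnt LOF, at 561, 514 and 484 after Wnt/BMP LOF, at 644, 513 and 468 after Wnt/Nodal LOF and at 627, 545 and 464 after Wnt/Nodal/BMP LOF. Every library of those 4 groups lay below every control library. The log2 fold changes were -0.77 ± 0.17, adjusted p = 0.0363, then -0.77 ± 0.17, adjusted p = 0.028, -0.71 ± 0.17, adjusted p = 0.033 and -0.70 ± 0.17, adjusted p = 0.0325. After Nodal, BMP and Nodal/BMP LOF, without the injection, it gave 0.02, adjusted p = 1, -0.01, adjusted p = 1 and -0.01, adjusted p = 1, with 1077, 810.4 and 804, then 1055, 726 and 861, then 1049, 764 and 833 normalised counts. Leaving out 1 replicate number leaves 2 libraries per group. Without replicate 2 all 4 calls were lost (adjusted p from 0.311 to 0.486), and likewise without replicate 3 (from 0.27 to 0.487).

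The subunit gene ndufab1, whose product is also the mitochondrial acyl carrier protein, and atp5g1 of the c subunit were higher in combined LOFs that included Wnt. For ndufab1 the controls stood at 883, 1079.8 and 1043, Wnt LOF at 1241, 1416 and 1473, Wnt/BMP LOF at 1197, 1561 and 1563, Wnt/Nodal LOF at 1275, 1658 and 1567 and Wnt/Nodal/BMP LOF at 1409, 1616 and 1474 normalised counts, so that all 4 groups lay above the controls. Its log2 fold changes were 0.52 ± 0.14, adjusted p = 0.0937 for Wnt/BMP, 0.58 ± 0.14, adjusted p = 0.0358 for Wnt/Nodal and 0.58 ± 0.14, adjusted p = 0.0325 for Wnt/Nodal/BMP LOF, and 0.46 ± 0.14, adjusted p = 0.254 and 0.000206 with the block for Wnt LOF. For atp5g1 the controls stood at 954, 890.0 and 755, Wnt LOF at 1074, 1097 and 1035, Wnt/BMP LOF at 1100.3, 1126 and 1095, Wnt/Nodal LOF at 1057, 1108 and 1042 and Wnt/Nodal/BMP LOF at 1062, 1201 and 1117, and all 4 groups lay above the controls. Its log2 fold changes were 0.35 ± 0.08, adjusted p = 0.0412, 0.30 ± 0.08, adjusted p = 0.082 and 0.38 ± 0.08, adjusted p = 0.0155 in the combined LOFs, and 0.30 ± 0.08, adjusted p = 0.137 and 0.0105 with the block for Wnt LOF. In each group at stage 9+ the representatives of the complexes did not pass the test. After Wnt/Nodal/BMP LOF ndufs1 gave 0.04, adjusted p = 1, sdha 0.01, adjusted p = 1, uqcrc1 0.00, adjusted p = 1, cox4i1 0.19, adjusted p = 1 and atp5b 0.12, adjusted p = 1. Without replicate 2 all 6 calls were lost, with adjusted p from 0.644 to 0.982 for ndufab1 and from 0.652 to 1 for atp5g1. Without replicate 3 they were lost too, from 0.267 to 0.376 and from 0.251 to 0.499, and without replicate 1 that of atp5g1 after Wnt/Nodal LOF was lost (0.122).

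Intron counts singled out ndufs8, an iron-sulphur core subunit of complex I, which was named after its values were seen. Its intron counts, normalised likewise, were 874, 819 and 615 in controls, 351, 339.6 and 218 after Nodal LOF, 293, 372 and 202 after Nodal/BMP LOF, 239.8, 456 and 428 after Wnt/BMP LOF, 207, 248 and 282 after Wnt/Nodal LOF and 242, 219 and 235 after Wnt/Nodal/BMP LOF. They were lower after Nodal (-1.35 ± 0.27, adjusted p = 0.00966), Nodal/BMP (-1.41 ± 0.27, adjusted p = 0.00645), Wnt/BMP (-1.04 ± 0.27, adjusted p = 0.0518), Wnt/Nodal (-1.65 ± 0.27, adjusted p = 0.000752) and Wnt/Nodal/BMP LOF (-1.73 ± 0.27, adjusted p = 0.000351), where 1.92%, 2%, 2.37%, 3.04% and 3.88% of all genes had lower introns. After Wnt and BMP LOF the values were -0.47 ± 0.27, adjusted p = 0.906 and -0.39 ± 0.27, adjusted p = 1. Exon log2 fold changes of ndufs8 lay between -0.08 and 0.02, and none passed the test. In RefSeq's order ndufs8 lies between clcf1 and unc93b1, and whether intron reads were shared with a neighbour was not tested.

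**Figure D4:**
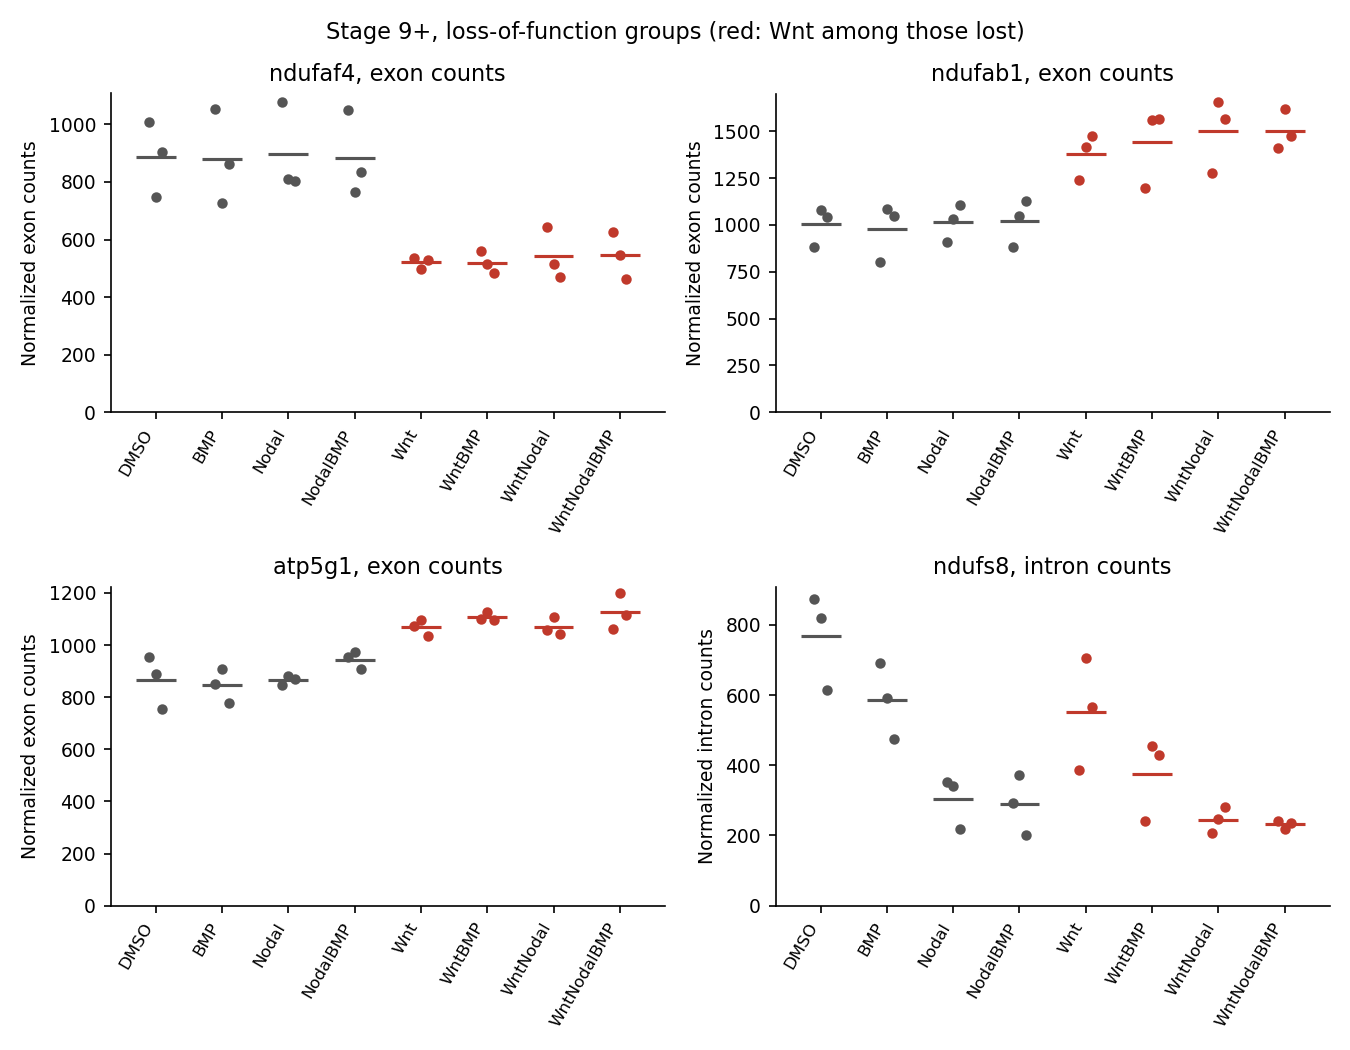
Normalised counts of each library at stage 9+ in the DMSO control and 7 LOF groups, for exons of ndufaf4, ndufab1 and atp5g1 and for introns of ndufs8, with a line at each mean and the groups with Wnt LOF in red. The 4 groups with Wnt LOF are low in ndufaf4, and the 4 groups with Nodal LOF and the Wnt/BMP LOF group are low in ndufs8 introns.

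In the 4sU experiment the ratios of these genes spread about as those of all genes did. The ratio of labelled (4sU-enriched) to input pairs, after DESeq2 size factors, is relative to the typical gene and has no replicate check. At stage 8+ 75 genes had at least 10 input pairs. Of these 12 were at least 2-fold above and 28 at least 2-fold below a ratio of 1, against 17.4% and 34.6% of all genes, with a median of 0.796 beside 0.764. At stage 10+ 14 of 74 were above and 30 below, against 23.3% and 42.1%, with a median of 0.636 beside 0.684. With exact binomial 95% intervals, which cover counting error only, 13 genes lay above 1 and 27 below at stage 8+, against 24% and 35.7% of all genes, and 17 above and 31 below at stage 10+, against 30.2% and 42.8%. No labelled pair was counted for 12 genes at stage 8+ and for 17 at stage 10+, against 16% and 19.9% of all genes. In the input RNA none was 2-fold higher at stage 10+ than at stage 8+ and 4 were 2-fold lower, against 7.94% and 7.46%, with a median of 0.962. Those 4 were ndufa11 (0.484), ndufs6 (0.412), atp5j (0.36) and ndufc2, which had 20 pairs at stage 8+ and 2 at stage 10+.

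Complex IV had a median ratio of 0.404 at stage 8+, with 1 of 11 genes at least 2-fold above and 6 below, and of 1.26 at stage 10+. At stage 10+ 5 of its 11 genes were at least 2-fold above and 2 below and complex I had 3 above and 16 below of 32, beside the 23.3% and 42.1% of all genes, and the difference between stages or complexes was not tested. The complex IV subunit cox7c had 3.22 (95% interval 2.21 to 4.58, 41 labelled and 142 input pairs) at stage 8+ and 6.64 (95% interval 5.02 to 8.78, 106 labelled and 104 input pairs) at stage 10+. The subunits cox6a1 and cox5a reached 2.05 (95% interval 1.63 to 2.56, 105 labelled and 334 input pairs) and 2.01 (95% interval 1.51 to 2.64, 69 labelled and 224 input pairs) at stage 10+, from 0.951 and 0.969 at stage 8+. The subunit cox4i1 had 0.167 (95% interval 0.0451 to 0.432, 4 labelled and 267 input pairs), then 0.695 (95% interval 0.449 to 1.04, 27 labelled and 253 input pairs), and cox5b.2 had no labelled pair against 216 input pairs at stage 8+. A ratio computed from 3 pairs, the limit a count of 0 allows, is 0.155 for cox5b.2. Among the highest at stage 8+ were also ndufs7 at 3.46 (95% interval 2.66 to 4.48, 79 labelled and 254 input pairs), sdhc at 2.92 (95% interval 2.19 to 3.84, 66 labelled and 252 input pairs) and ndufv2 at 2.04 (95% interval 1.49 to 2.75, 53 labelled and 289 input pairs). At stage 10+ ndufs7 was at 0.648 and ndufv2 at 0.89 while sdhc had no labelled pair against 135 input pairs, with a limit of 0.145. The assembly factor ndufaf1 was at 1.87 (95% interval 1.3 to 2.66, 42 labelled and 146 input pairs).

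Several well-counted transcripts gave few or no labelled pairs. At stage 8+ ndufa5, uqcrc2 and uqcr11 gave no labelled pair against 117, 207 and 357 input pairs, which limits their ratios to 0.286, 0.161 and 0.0936. At stage 10+ ndufa5 was at 2.47 (95% interval 1.44 to 4.1, 22 labelled and 58 input pairs) and uqcr11 at 1.08 (95% interval 0.788 to 1.44, 53 labelled and 321 input pairs). The core subunit ndufs1 had 0.458 (95% interval 0.341 to 0.602, 53 labelled and 1290 input pairs) at stage 8+ and 0.0417 (95% interval 0.0167 to 0.0863, 7 labelled and 1092 input pairs) at stage 10+. At stage 10+ ndufb5 and ndufs5 gave no labelled pair against 117 and 205 input pairs (limits 0.167 and 0.0953). The flavoprotein sdha went from 0.402 (95% interval 0.293 to 0.54, 46 labelled and 1273 input pairs) to 0.572 (95% interval 0.465 to 0.698, 107 labelled and 1217 input pairs), uqcrc1 from 0.899 to 0.598 with overlapping intervals, and atp5b from 0.724 (95% interval 0.655 to 0.799, 422 labelled and 6492 input pairs) to 0.626 (95% interval 0.569 to 0.687, 491 labelled and 5108 input pairs). Between stages the intervals lay apart upward for 14 and downward for 17 of 74 genes, and overlapped for 43, while 18.9% of all genes lay apart upward and 24.6% downward. Few labelled pairs aligned to genes, so the ratios of single genes rest on small counts.

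**Figure D5:**
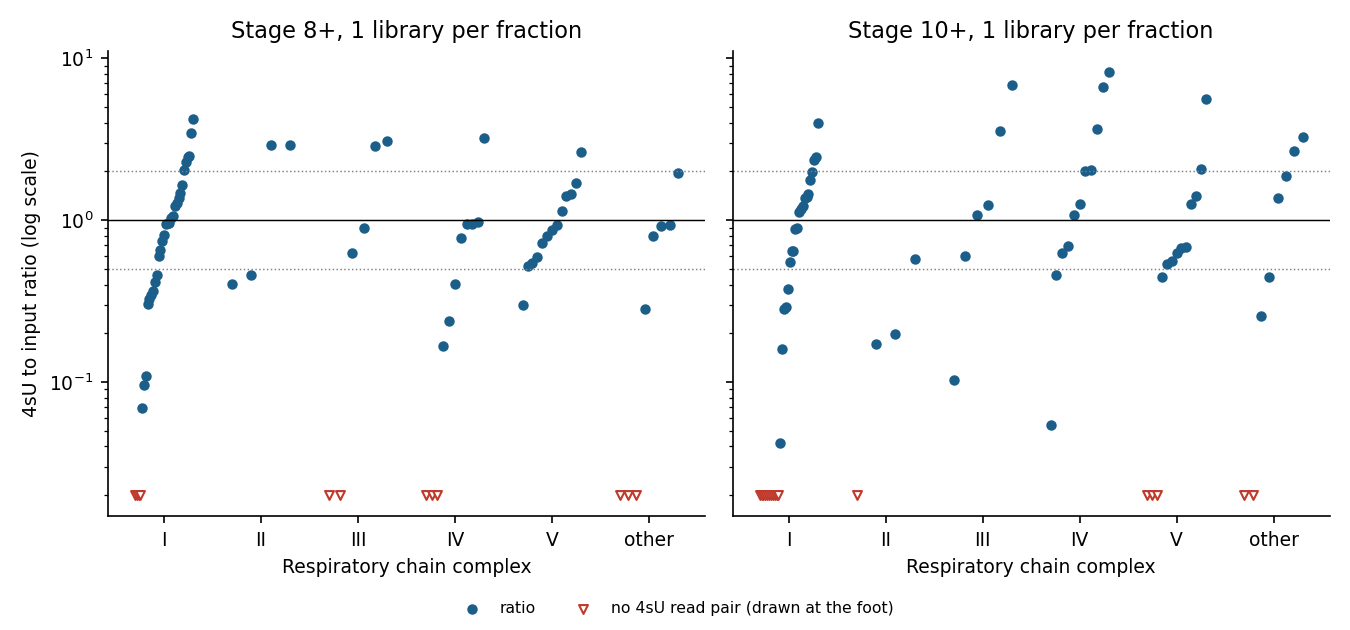
Ratio of 4sU-enriched to input read pairs after size factors (log axis) at stages 8+ and 10+, 1 point per gene, grouped by complex, with genes that have no 4sU-enriched pair as open triangles at the foot and dotted lines at the 2-fold limits. Complex IV has 1 of 11 genes at least 2-fold above 1 at stage 8+ and 5 of 11 at stage 10+, and cox7c is at 6.64.

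The mean profile of the 77 genes over the 6 groups of stages 10+ to 12+ rose from 4.42 to 4.82 and 4.88 in cMO and from 4.35 to 4.63 and 4.84 in zTLOF embryos, in log2 CPM. Of 13065 genes compared, the 5 whose group means correlated best with it were none of the 77 themselves: rasgrp1 (0.998), tfg (0.998), mak16 (0.998), ubqln4 (0.997) and cd2bp2 (0.997). These are Pearson correlations over 6 group means, which share stages and libraries, and are given as a description. Of the 77 genes 37 had a correlation above 0.9, among 2099 of 13065 genes in all. The 77 genes make up the mean themselves, which raises their correlations with it, so these shares are no test of likeness.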

How the data were processed

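RNA was sequenced from whole *X. tropicalis* embryos in 52 libraries: 4 of nascent and input RNA, 24 of poly(A) RNA at stage 9+ and 24 at stages 10+ to 12+. Groups and replicate numbers came from the sample labels. The authors deposited raw counts without normalization. For nascent RNA the authors aligned read pairs to transcripts with Bowtie2, and for poly(A) RNA they aligned to genome version 7.1 with STAR and counted exons and introns per gene, on version 7.2 gene models, with VERSE in its featureCounts mode without regard to strand. The submitters' processing notes name Bowtie2 2.1.0, STAR 2.5.3a, SAMtools 1.3.1, CASAVA 1.8.2 and DESeq2 1.14.1. Overlapping genes and close paralogs can share reads in such counts, so their separate values are uncertain. In the 4sU table unmapped pairs (39.5% and 50.4% of input, 95.5% and 91.3% of 4sU-enriched pairs at stages 8+ and 10+) and 10 lines that are no genes (0.163% to 0.717%) stayed out of library sizes.

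Counts were tested in R 4.3.3 with edgeR 4.0.16: TMM normalization, filterByExpr by group, a quasi-likelihood fit over all 24 libraries of an experiment, and Benjamini-Hochberg adjustment over all genes tested (17188 and 16001 for exons, 13026 and 11499 for introns). A gene is called where its adjusted p is 0.1 or less, following the study's false discovery rate. For zTLOF over the stages, stage and condition were terms, and a further fit tested the stage by condition terms. Introns were fitted likewise on intron counts. The 4sU ratios used DESeq2 1.42.0 size factors, at least 10 input pairs and exact binomial 95% intervals (scipy 1.17.1, Python 3.11.15), and a count of 0 was given the limit of 3 pairs. Figures were drawn with matplotlib 3.10.9. The fits were also run on simulated counts with known changes. Those counts had no effect shared by replicate number, so that run does not bear on the pairing described below.

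Replicate numbers paired the libraries: across genes, deviations from group means correlated at 0.527 to 0.881 between same-numbered libraries at stages 10+ to 12+ (20 pairs) and at 0.413 to 0.879 at stage 9+ (21 pairs), against -0.483 to 0.149 (60 pairs) and -0.653 to -0.133 (42 pairs) for different numbers. What the numbers share is not given in the sources used here. The tests have no block, as in the study, and values with the replicate block are given where a call changes.

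The genes, the pathway lists (complex I core subunits and complex I assembly outside the symbol rule, complex III, IV and V assembly, cytochrome c, tricarboxylic acid cycle, biogenesis regulators, carriers and channels, glycolysis, germ layer markers) and the rules were chosen with earlier results of these data known. The text names a representative of each complex, paralogous subunits, the 5 largest rises and falls per comparison among called genes with a mean of at least 50 normalised counts and the same direction in every pair, the 4 highest and lowest 4sU ratios among genes with at least 100 input pairs, and the 5 genes most like the mean profile. For zTLOF at stage 10+ the rule also took ndufa11 among the rises and atp5c1 among the falls, and their values there are not printed. Other genes, among them the remaining core and complex II subunits, ndufb4, ndufb6, ndufa7, uqcrc2, uqcrfs1, cox5b.1, sdhaf2 and the introns of ndufs8, were named after their values were seen. Alternatives were DESeq2 size factors, the DESeq2 test, library totals, no filter, intron counts, the replicate block, each replicate left out, and for 4sU ratios a minimum of 100 input pairs, library totals and no minimum with a pseudocount of 1. Subunits alone were tried after seeing the data. Protein, promoter and transcript sequences were not used here.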

Additional observations from a re-analysis of the deposited data

Results flagged for a closer look

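In 19 of 168 groups of 4 libraries, over 28 named genes, 1 library stood apart from the other 3, with a gap to the nearest that was past Dixon's 95% limit for the share of the whole range. For independent groups chance gives about 1 in 20. The genes here were measured in the same libraries, so whether 19 is an excess cannot be told. In 12 of the 19 groups replicate 3 was the highest library. These were atp5a1 in zTLOF at stage 10+ (ratio 0.959, 5064 against 3074 to 3154 normalised counts), atp5a1 in zTLOF at stage 11+ (ratio 0.863, 8032 against 4098 to 4639 normalised counts) and atp5b in zTLOF at stage 11+ (ratio 0.857, 42413 against 35614 to 36589.6 normalised counts). Further such groups were atp5f1 in zTLOF at stage 10+ (ratio 0.845, 818 against 455 to 511 normalised counts), atp5f1 in zTLOF at stage 11+ (ratio 0.842, 1255 against 651 to 746 normalised counts) and atp5j2 in zTLOF at stage 10+ (ratio 0.901, 232 against 167 to 174 normalised counts). Further such groups were atp5j2 in zTLOF at stage 11+ (ratio 0.836, 437 against 302 to 324 normalised counts), cox4i1 in zTLOF at stage 10+ (ratio 0.919, 2673 against 2231 to 2266 normalised counts) and cox4i1 in zTLOF at stage 11+ (ratio 0.884, 4056 against 2923 to 3054 normalised counts). Further such groups were ndufaf2 in cMO at stage 10+ (ratio 0.907, 298 against 151 to 165 normalised counts), ndufaf2 in zTLOF at stage 10+ (ratio 0.916, 263 against 155 to 164 normalised counts) and ndufaf2 in zTLOF at stage 11+ (ratio 0.832, 276 against 118 to 144 normalised counts). In the other 7 another replicate stood apart. Replicate 2 was lowest in cox4nb in zTLOF at stage 12+, at 1985 against 2372 to 2426 (ratio 0.877). Replicate 1 was highest in ndufaf1 in cMO at stage 12+, at 439.6 against 299.9 to 305 (ratio 0.964). Replicate 1 was highest in ndufaf1 in zTLOF at stage 10+, at 1214 against 969.8 to 1000.3 (ratio 0.875). Replicate 1 was lowest in ndufc1 in cMO at stage 10+, at 273 against 339 to 348 (ratio 0.889). Replicate 1 was lowest in ndufs1 in zTLOF at stage 10+, at 4507 against 4645 to 4668 (ratio 0.857). Replicate 4 was lowest in sdha in cMO at stage 12+, at 3363 against 4064 to 4089.7 (ratio 0.964). Replicate 2 was highest in sdhd in cMO at stage 10+, at 825 against 590.1 to 606 (ratio 0.935).

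By the test of the stage by condition terms the effect of zTLOF differed between stages in 15 of 77 genes, against 27.1% of all genes. They were, with the adjusted p in brackets: ndufa5 (0.0809), ndufa9 (0.0811), ndufb5 (1.5e-05), ndufc1 (0.0255), ndufs1 (0.017), ndufs3 (0.0117), ndufs8 (0.00257), ndufv1 (0.0297), sdha (0.00444), sdhd (0.063), uqcrfs1 (0.000794), cox6b1 (0.078), cox7c (0.00921), atp5b (6.2e-05) and atp5sl (0.000119). The log2 fold change at stages 10+, 11+ and 12+ was -0.08, -0.12 and 0.28 for uqcrfs1, -0.36, -0.35 and 0.10 for ndufs8 and 0.33, -0.10 and -0.21 for cox7c. For the core subunits ndufs3 and ndufv1 it was 0.17, 0.18 and 0.57 and -0.04, -0.23 and -0.54.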

How the results depend on the processing

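On exon counts the numbers of calls stayed within 1.5 times under DESeq2 size factors, the DESeq2 test, library totals and no filter, except that Wnt LOF gave 3 calls by the DESeq2 test and 2 with library totals. Of all 16001 genes these called 310 and 186. Library totals gave 37 rises and 12 falls from stage 10+ to 11+, where TMM gave 52 and 3, and 21 and 23 from stage 11+ to 12+, where TMM gave 30 and 21. Of all 17188 genes library totals called 10105 and 12492 in these steps, and TMM 9921 and 12415. Intron counts called 31 genes from stage 10+ to 11+, 18 for zTLOF at stage 11+ and 1 for a difference between stages. Of all 13026 genes tested on introns 5456, 2820 and 969 were called there. At stage 9+ intron counts called 0 for Wnt LOF and 1 each for Nodal, Nodal/BMP, Wnt/BMP, Wnt/Nodal and Wnt/Nodal/BMP LOF and for any difference. Of all 11499 genes 132, 231, 257, 298, 388, 501 and 483 were called, in that order. Fewer genes were tested on introns than on exons. The replicate block called 32, 54 and 46 genes for zTLOF at stages 10+, 11+ and 12+, 37 for a difference between stages, and at stage 9+ 4 (Wnt), 1 (Nodal/BMP), 9 (Wnt/BMP), 6 (Wnt/Nodal), 6 (Wnt/Nodal/BMP) and 5 (any difference). It changed no other count of calls by more than 1.5 times.

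Leaving out 1 replicate number gave 15 to 27 calls for zTLOF at stage 11+, 18 to 27 at stage 12+, 7 to 12 for a difference between stages, and at stage 9+ 0 to 2 (Wnt), 0 to 3 (Wnt/BMP), 0 to 2 (Wnt/Nodal), 0 to 5 (Wnt/Nodal/BMP) and 0 to 3 (any difference). These fits called fewer of all genes too, with 3454 to 5481 for zTLOF at stage 11+ and 4604 to 6066 at stage 12+. For a difference between stages they called 2120 to 4383 of all genes. At stage 9+ they called 13 to 107 (Wnt), 11 to 239 (Wnt/BMP), 97 to 310 (Wnt/Nodal), 88 to 447 (Wnt/Nodal/BMP) and 75 to 367 (any difference) of all genes. With at least 100 input pairs, 25 of 51 genes passed the 2-fold limits of the 4sU ratio at stage 8+ and 17 of 41 at stage 10+, and 0 that of the input ratio, which 8 passed with library totals. The shares of all genes given for these ratios are from size factors and the lower minimum, and do not apply to these counts.

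Of the values of medians and of the genes that the naming rule took in each comparison, under all alternatives, 1880 kept direction and side of the threshold, 107 lost and 27 gained a call, 10 moved by more than the spread, and 29 changed sign. Library totals changed the sign of atp5b (-0.051) and ndufs1 (-0.025) from stage 10+ to 11+. Introns changed the sign from stage 10+ to 11+ of cox4nb (0.88), uqcr10 (-0.044) and uqcrc1 (-0.44), and from stage 11+ to 12+ of atp5a1 (-0.35), atp5f1 (-0.22), cox6a1 (-0.46), cox6b1 (-0.82), cox7a2 (-0.66), ndufaf1 (0.10), ndufc2 (-0.029) and ndufs1 (0.76). For zTLOF introns did so for ndufb5 (-0.19) at stage 10+, for atp5b (-0.82), cox6b1 (0.036), ndufaf3 (-0.19), sdhd (-0.039) and uqcrc1 (0.00019) at stage 11+, for atp5b (-0.24), cox7a2l (0.62), ndufs1 (-0.27) and ndufs3 (-0.052) at stage 12+, and for atp5b (-0.59), cox6b1 (0.18) and cox7a2l (0.37) over the stages, and for ndufab1 after Wnt/BMP (-0.22), Wnt/Nodal (-0.29) and Wnt/Nodal/BMP LOF (-0.46). Over all of the 77 genes called on exons, whether named by the rule or not, introns had the opposite sign in 12 of 52 from stage 10+ to 11+, in 23 of 46 from stage 11+ to 12+ (among them cox7b at -0.52 and uqcr10 at -0.73) and in 6 of 35 for zTLOF over the stages, and library totals in 2 of 55, 0 of 51 and 0 of 37. The cause was not tested. The 4sU libraries held few pairs on genes, which limits single ratios.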
